A study of Mus musculus with 8 samples.

Results

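The genes described here build cholesterol and fatty acids, and comprise 30 named members of the sterol and lipid synthesis programme that SREBP transcription factors control, out of 23420 gene symbols in the count tables. The members are a list of names, and no measured value entered the rule, although the list was drawn up with earlier results of these data known. Of the 30, 29 were listed under their current symbol and Msmo1 under its older symbol, Sc4mol. They were examined by RNA-seq in mouse embryonic stem cells (mESCs), pluripotent cells derived from day 5 preimplantation blastocysts of a 129 x C57BL/6 background, of the genotypes IPO13+/+ and IPO13-/-. IPO13 encodes importin 13, a carrier that moves proteins across the nuclear envelope. Each genotype was either left untreated or given 125 µM H2O2, an oxidant, for 1 h with 2 h of recovery in clean medium, and each of the 4 groups had 2 libraries. Whether untreated cells had a matching change of medium is not given in the sources used here. The effects of H2O2 and of a medium change can therefore not be told apart, and treatment below stands for both. All cells were grown without feeders in serum with LIF, the cytokine that maintains pluripotency. Each genotype stands for a cell line that the authors had described earlier, and how many clones it represents and how separately the replicate cultures were kept is not given in the sources used here. Differences between lines and the effect of the IPO13 genotype can therefore not be told apart, and p-values measure the spread between these libraries, which may be technical.

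Cholesterol is made from acetyl-CoA through mevalonate, isoprenoid diphosphates, squalene and lanosterol, and most of the enzymes of this route are transcribed under SREBP2. The SREBP proteins are held in the endoplasmic reticulum by SCAP and INSIG when sterols are plentiful. When sterols become scarce they travel to the Golgi apparatus, are cut there, and release a fragment that enters the nucleus. SREBP1 acts more on the fatty acid branch, in which acetyl-CoA is carboxylated, condensed into palmitate, elongated and desaturated. Cells grown in serum can also take up cholesterol from lipoproteins, so that the level of these transcripts is known to follow the sterol supply. The members fall by role into 7 enzymes of the mevalonate arm, 11 of the squalene and sterol arm, 4 regulators and sterol carriers, 4 genes of fatty acid synthesis and elongation, and 4 desaturases.

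The libraries held between 60397877 and 73789079 reads counted on genes, so that 3 counts, taken as the smallest number told from 0 by counting error alone, correspond to between 0.0407 and 0.0497 CPM, the count scaled to the library total. All 30 members passed the filter of at least 1 count in any library and were counted in every library, with a lowest count of 382 (Tm7sf2) and a highest of 55246 (Fasn). The biological coefficient of variation over all genes was 3.36%, and the standard errors of the members' log2 fold changes lay between 0.04 and 0.08 for the response to H2O2 in IPO13+/+ cells. The fit shares its estimate of spread over all groups, but replicates did not agree equally. The chi-square per gene between the 2 libraries of a group was 15.0 in untreated and 2.26 in treated IPO13+/+ cells. It was 4.58 and 6.59 in IPO13-/- cells. Comparisons with untreated IPO13+/+ libraries may thus have understated standard errors, which was not tested. Transcripts of Ipo13 were present in both lines, at 70.3 and 68.3 CPM in untreated IPO13+/+ libraries, 72.4 and 69.3 after treatment, 25.9 and 25.0 in untreated IPO13-/- libraries, and 24.9 and 25.9 after treatment. The untreated difference had a log2 fold change of -1.44 (SE 0.05, FDR 9.5e-19), and a count over the whole gene does not show whether the remaining reads lie outside the disrupted part. The 8 pluripotency markers were all detected and summed to between 6310 and 6787 CPM in IPO13+/+ and between 5583 and 5755 in IPO13-/- libraries. Of these 8, 5 fell and 0 rose after H2O2 in IPO13+/+ cells, beside 13.8% and 11.5% of all tested genes. In IPO13-/- cells 4 fell and 3 rose, beside 14.4% and 14.9% of all tested genes. The summed markers of the early neural lineage were 144 and 147 CPM untreated and 130 and 127 treated in IPO13+/+ cells, and between 156 and 157 in all IPO13-/- libraries. This level sum hides single markers that moved in opposite directions. In IPO13-/- cells the log2 fold changes of these 5 markers after H2O2 lay between -1.26 and 0.70, with 2 falls and 0 rises called. The summed markers of primitive endoderm were 24.1 and 21.5 CPM and then 16.9 and 18.0 in IPO13+/+ cells, and 19.7 and 19.3 and then 18.4 and 15.9 in IPO13-/- cells. Those of trophectoderm were 22.3 and 25.9 CPM and then 19.8 and 18.6 in IPO13+/+ cells, and 19.5 and 18.6 and then 14.5 and 15.9 in IPO13-/- cells. Single markers did not all follow these sums after H2O2. Of 6 trophectoderm markers, 5 had a positive log2 fold change in IPO13-/- cells and 3 in IPO13+/+ cells, with 1 rise and 1 fall called in each. For primitive endoderm, 4 of 7 were positive in IPO13-/- cells and 1 of 7 in IPO13+/+ cells. The 6 fibroblast markers summed to between 1.27 and 5.04 CPM, with Col3a1, Postn, Dcn and Lum at 0 in at least 1 library and both treated IPO13+/+ libraries highest. These sums thus moved with treatment or genotype, as the members did, and their part in the members' results was not tested, and in bulk RNA fewer cells of a kind and less RNA per cell cannot be told apart.

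The programme was well expressed in these cells. On the scale of TMM-normalized CPM (values after the trimmed mean of M-values scaling used throughout), the mean level of the members lay between the 51.2 and 99.1 percentiles of all tested genes, and 19 of the 30 were above the 80th percentile. Per kilobase of exon, the highest mean levels belonged to genes of fatty acid metabolism. Scd2, a stearoyl-CoA desaturase that introduces the first double bond, had 119 CPM per kilobase, and Acly, which supplies cytosolic acetyl-CoA, had 108. Fasn, the synthase that makes palmitate, had 64.6. Among the sterol genes the highest was Insig1, the retention factor of the SREBP pathway, with 52.4. It was followed by Hmgcs1, the HMG-CoA synthase, with 37.1, and by Acat2, which joins acetyl-CoA units, with 35.5. Tm7sf2, a sterol reductase, was lowest with 1.45, and Hsd17b7, a sterol ketoreductase, had 2.12.

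**Figure D1:**
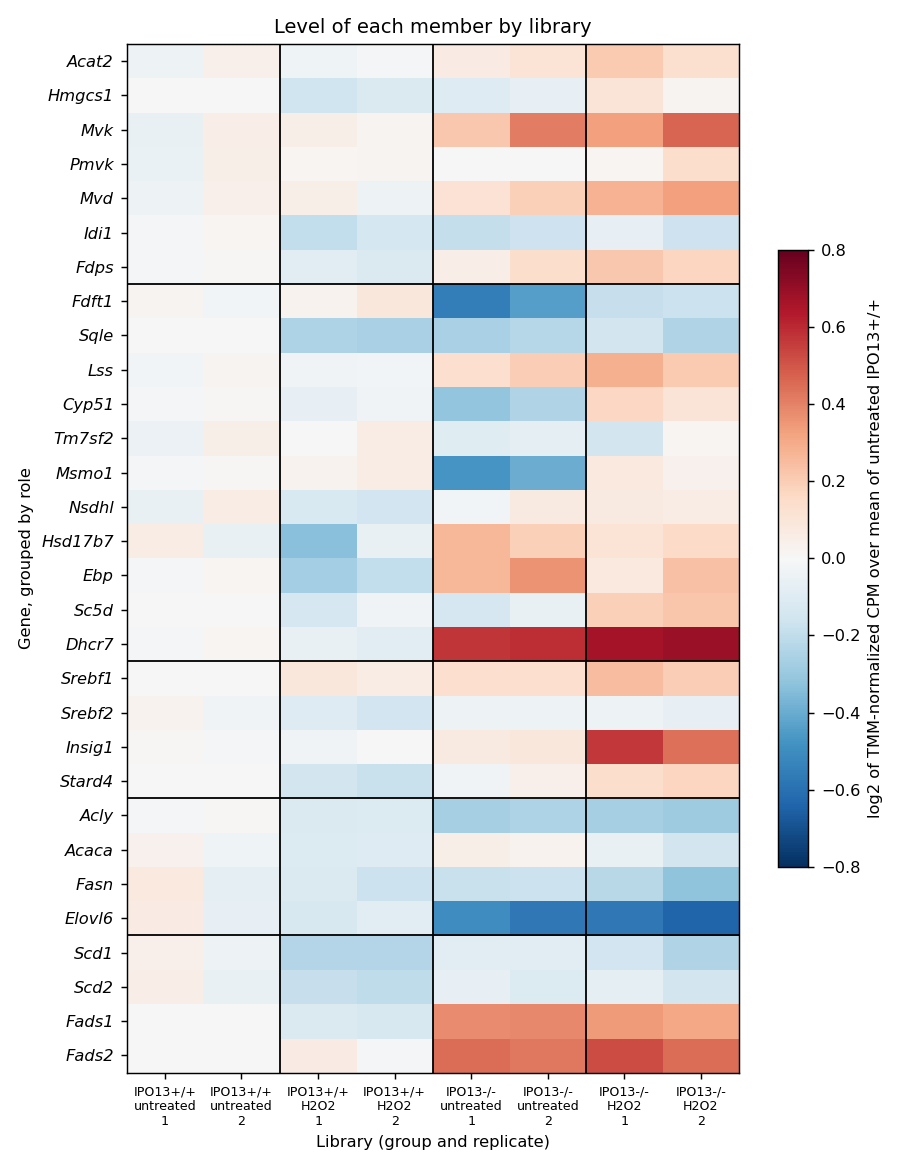
Level of each member (rows, grouped by role) in each library (columns), as the log2 of TMM-normalized CPM over the mean of the 2 untreated IPO13+/+ libraries; black lines separate roles and groups. Dhcr7, Fads1 and Fads2 are high in all 4 IPO13-/- libraries and Elovl6 is low in them, whereas Fdft1 and Msmo1 are lowest in the 2 untreated IPO13-/- libraries and Insig1 is highest in the 2 treated ones.

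In IPO13+/+ cells, treatment with H2O2 lowered a share of the programme and raised none of it. Of the 30 members, 12 fell and 0 rose at a Benjamini-Hochberg FDR below 0.05 in edgeR's quasi-likelihood test, or 40% of the members, beside 13.8% of all 19424 tested genes that fell and 11.5% that rose. Among the 9477 genes with a mean level at or above that of the lowest member, 24.4% fell and 13.7% rose. The median log2 fold change of the members was -0.10, against -0.001 over all tested genes. Among the genes at or above the lowest member's level it was -0.05, so that part of this shift was shared by expressed genes. The changes were small, and no member reached a 2-fold change in this or any other comparison, whereas 2.75% of all tested genes rose and 0.149% fell by that much in these cells. The 2 groups did not overlap for 20 members that were lower and 3 that were higher after treatment, beside 30.6% and 25.2% of all tested genes, and overlapped for 7.

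In the mevalonate arm, 2 of 7 members fell. Hmgcs1 had 175 CPM in both untreated libraries and 157 and 162 after treatment, and fell by 8.96% (log2 fold change -0.14, SE 0.04, FDR 0.015). Idi1, the isomerase of isopentenyl diphosphate, fell from 39.17 and 39.996 CPM to 34.6 and 36.0 (log2 fold change -0.17, SE 0.05, FDR 0.013). In both genes the treated libraries lay below the untreated ones without overlap. Of the squalene and sterol arm 3 of 11 fell. Sqle, the squalene epoxidase that is a rate-limiting step of the late pathway, had 138 and 139 CPM untreated and 116 in both treated libraries, and fell by 16.2% (log2 fold change -0.25, SE 0.04, FDR 4.0e-05), which was the largest fall of a member in these cells. Ebp, the sterol isomerase, fell from 40.6 and 41.6 CPM to 34.0 and 35.8 (log2 fold change -0.24, SE 0.05, FDR 0.0016). Nsdhl, which takes part in removing the sterol's C4 methyl groups, had 78.2 and 84.8 CPM and then 75.0 and 73.3, a fall of log2 fold change -0.14 (SE 0.05, FDR 0.033).

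Of the regulators, Srebf2, the gene of SREBP2 itself, fell from 256 and 247 CPM to 234 and 226 (log2 fold change -0.13, SE 0.04, FDR 0.015), and Stard4, a cytosolic carrier of cholesterol, from 19.0 and 18.9 CPM to 17.1 and 16.8 (log2 fold change -0.16, SE 0.06, FDR 0.033). Srebf1, the gene of SREBP1, did not pass the test, with 75.4 CPM in both untreated libraries and 80.2 and 78.6 in the treated ones (log2 fold change 0.07, FDR 0.23). Insig1 had 146 and 144 CPM untreated and 142 and 145 treated (log2 fold change -0.01, FDR 0.89), and these groups overlapped. In the fatty acid branch the fold changes of Acly, Acaca, Fasn and Elovl6 were all negative, and those of Acly (FDR 0.019) and Fasn (FDR 0.016) passed the test. Of the 9477 genes at or above the lowest member's level, 6012 had a negative fold change. Fasn had 823 and 740 CPM untreated and 720 and 694 treated, and fell by 9.50%. Of the 4 desaturases 3 fell. Scd1 fell from 211 and 200 CPM to 175 in both treated libraries (log2 fold change -0.23, SE 0.04, FDR 9.6e-05), and Scd2 from 721 and 668 CPM to 612 and 603 (log2 fold change -0.19, SE 0.04, FDR 0.00057). Fads1, the delta-5 desaturase of polyunsaturated fatty acids, fell by 7.95% (FDR 0.045), and Fads2, the delta-6 desaturase, had a log2 fold change of 0.03 that did not pass the test. Of these 12 falls, those of Sqle, Scd1 and Scd2 passed the test under every alternative other than the 2-fold threshold and with each of the 8 libraries left out. The count of 12 was 4 with library totals in place of TMM factors, 4 with only the 4 libraries compared, 5 with a stricter filter on low counts, 7 with DESeq2, and between 3 (without treated IPO13+/+ library 1) and 12 when single libraries were left out. It was also 4 without either untreated IPO13-/- library, 5 without either treated IPO13-/- library, 6 without treated IPO13+/+ library 2 and 8 without untreated IPO13+/+ library 1.

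In IPO13-/- cells the same treatment raised more members than it lowered. Here 8 of 30 members rose and 2 fell, or 26.7% and 6.67%, beside 14.9% of all tested genes that rose and 14.4% that fell. Of the genes at or above the lowest member's level, 21.3% rose and 22.6% fell. The median log2 fold change of the members was 0.07, against 0.00 over all tested genes and -0.01 over those at or above the lowest member's level. Changes of at least 2-fold, which no member reached, made up 2.52% (rises) and 0.371% (falls) of all tested genes. The groups did not overlap for 16 members that were higher and 7 that were lower after treatment, beside 29.9% and 29.5% of all tested genes. The rises lay in the cholesterol branch. The mevalonate arm had 7 of 7 positive fold changes, of which 2 were called. Of the 9477 genes at or above the lowest member's level, 4489 had a positive fold change. The squalene and sterol arm had 4 that rose and 1 that fell, and of the regulators and carriers 2 of 4 rose. None of the 4 desaturases was called in either direction, and in fatty acid synthesis Acaca, the acetyl-CoA carboxylase, was the only member called. It had 105 and 103 CPM untreated and 97.5 and 91.8 treated, and fell by 8.94% (FDR 0.020).

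The largest rise was that of Msmo1, the sterol C4-methyl oxidase, from 46.5 and 48.9 CPM to 68.0 and 65.8, or 40.4% (log2 fold change 0.49, SE 0.05, FDR 2.0e-09). Insig1 rose from 152 and 154 CPM to 215 and 197, or 34.1% (log2 fold change 0.42, SE 0.04, FDR 9.7e-09). Cyp51, the lanosterol demethylase, rose from 84.3 and 88.8 CPM to 118 and 113, or 33.4% (log2 fold change 0.42, SE 0.04, FDR 1.7e-08). In each of these 3 genes both treated libraries lay above both untreated ones by a gap larger than the spread within either group. Fdft1, the squalene synthase that commits isoprenoid units to sterols, rose from 109 and 117 CPM to 141 in both libraries (log2 fold change 0.32, SE 0.04, FDR 2.0e-06). Sc5d, the sterol C5 desaturase, rose from 28.2 and 29.7 CPM to 35.3 and 36.1 (log2 fold change 0.30, SE 0.05, FDR 4.2e-05). These 5 rises were called under the same alternatives and with each library left out. Smaller rises were found for Hmgcs1 (10.8%, FDR 0.0067), Stard4 (10.9%, FDR 0.041) and Mvd, the decarboxylase of mevalonate diphosphate, which had 45.1 and 47.5 CPM untreated and 50.4 and 52.2 treated (10.9%, FDR 0.022). Ebp fell in these cells too, from 49.4 and 52.6 CPM to 43.3 and 48.4 (log2 fold change -0.15, SE 0.05, FDR 0.029). This call was lost with filterByExpr, limma-voom and DESeq2 and without either untreated IPO13-/- library or treated IPO13-/- library 1, and its log2 fold change lay between -0.22 and -0.06 with single libraries left out. The count of 8 rises was 6 with library totals, with 4 falls beside it in place of 2, and 9 with the stricter filter, with 1 fall. Leaving out untreated IPO13-/- library 1 left 5 rises and 0 falls, and leaving out untreated IPO13-/- library 2 left 9 and 0. There were 4 falls without either untreated IPO13+/+ library and 1 without either treated IPO13-/- library.

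**Figure D2:**
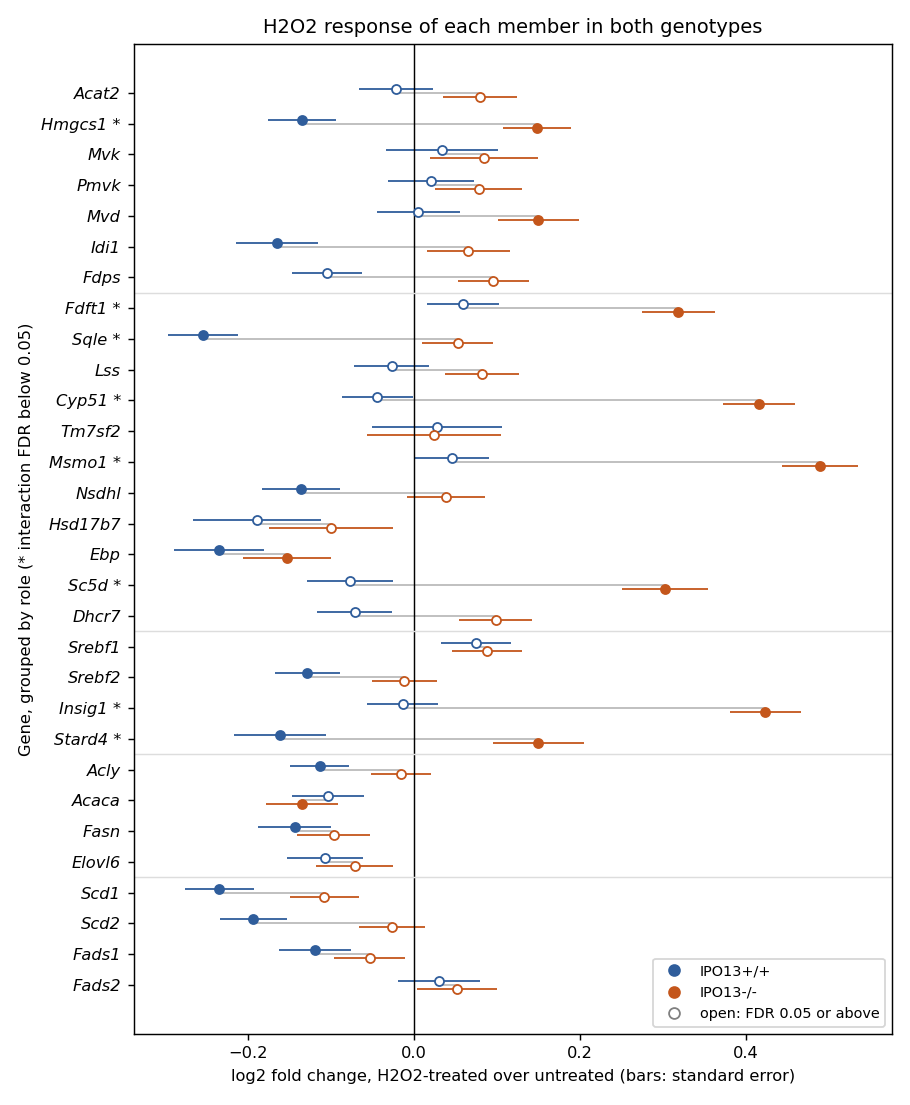
The log2 fold change of each member (rows, grouped by role) between H2O2-treated and untreated libraries in IPO13+/+ cells (blue) and IPO13-/- cells (orange); bars are standard errors from edgeR, filled points have an FDR below 0.05, and stars mark members whose response differed between the genotypes. Most orange points of the upper 3 groups lie to the right of the blue ones, with the widest gaps at Cyp51 (0.46), Msmo1 and Insig1 (both 0.44), while Fasn differs by 0.05 and Elovl6 by 0.04.

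Whether the response to H2O2 differed between the genotypes was tested directly with the interaction term of the fit. The difference passed the test for 8 of 30 members (26.7%), all with a greater fold change in IPO13-/- cells, and for 0 in the other direction. Over all tested genes, 2.01% were called with a greater and 0.705% with a smaller fold change in IPO13-/- cells, and among genes at or above the lowest member's level these shares were 3.65% and 0.886%. At a difference of at least 2-fold they were 0.0772% and 0.0669% of all tested genes, and 0 of the members. The median difference over the members was 0.12 on the log2 scale. It was 0.02 over all tested genes and 0.04 over those at or above the lowest member's level. The difference was positive for 28 members and negative for 2. Of the 19424 tested genes it was positive for 10408, and of the 9477 at or above the lowest member's level for 5896. By role, 5 of 11 members of the squalene and sterol arm were called (Fdft1, Sqle, Cyp51, Msmo1 and Sc5d), 1 of 7 of the mevalonate arm (Hmgcs1), 2 of 4 of the regulators and carriers (Insig1 and Stard4), and none of the 4 fatty acid synthesis genes or the 4 desaturases. Lss, which acts between Sqle and Cyp51 in the pathway, was not called (0.11).

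The difference was 0.46 for Cyp51 (SE 0.06, FDR 3.7e-05), which in IPO13+/+ cells had 105 ± 0.772 CPM untreated and 102 ± 1.92 after treatment, and in IPO13-/- cells 86.6 ± 3.20 and 115 ± 3.68 (mean ± SD, n = 2). For Msmo1 the difference was 0.44 (SE 0.06, FDR 8.8e-05), with means of 64.4 ± 0.582 and 66.4 ± 1.12 in IPO13+/+ and of 47.7 ± 1.68 and 66.9 ± 1.54 in IPO13-/- cells. The difference for Insig1 was also 0.44 (SE 0.06, FDR 5.9e-05), with 145 ± 1.01 and 144 ± 2.23 in IPO13+/+ and 153 ± 1.51 and 206 ± 12.5 in IPO13-/- cells. These 3 genes were not called in IPO13+/+ cells and rose by 33.4% to 40.4% in IPO13-/- cells. Sc5d had the next largest difference, 0.38 (SE 0.07, FDR 0.0027), and its IPO13+/+ libraries held 30.9 and 31.0 CPM before and 28.3 and 30.4 after treatment. Fdft1 differed by 0.26 (SE 0.06, FDR 0.018), with 162 and 157 CPM before and 163 and 170 after treatment in IPO13+/+ cells. Reads of this gene could have come in part from Ctsb on the opposite strand, whose exons cover 18.3% of its exon bases, since whether the counting used strand is not given in the sources used here.

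In the remaining genes the change in IPO13+/+ cells was a fall. Sqle fell in IPO13+/+ cells and had 115 and 118 CPM untreated and 125 and 117 treated in IPO13-/- cells, where it was not called (log2 fold change 0.05, FDR 0.42), and the difference was 0.31 (SE 0.06, FDR 0.0032). Hmgcs1 had 163 and 167 CPM untreated and 188 and 178 treated in IPO13-/- cells, and differed by 0.28 (SE 0.06, FDR 0.0049). The antisense gene Gm48342 on the opposite strand covers 12.1% of the exon bases of Hmgcs1. Stard4 had 18.6 and 19.5 CPM and then 20.9 and 21.4 in IPO13-/- cells, and differed by 0.31 (SE 0.08, FDR 0.027). Hmgcs1 and Stard4 were called as a fall in one genotype and a rise in the other. The fall of Stard4 in IPO13+/+ cells was lost under 5 of 8 alternatives and on leaving out any 1 of the 8 libraries, and its rise in IPO13-/- cells under 2 alternatives and when any of 5 libraries was left out. The fall of Hmgcs1 was lost under 3 alternatives and when any of 6 libraries was left out, and its rise without untreated or treated IPO13-/- library 1. Cyp51, Msmo1 and Insig1 passed the interaction test under every alternative other than the 2-fold threshold and with every library left out, and the other 5 each lost it when 2 to 6 of the 8 libraries were left out in turn. The count of 8 was 3 without untreated IPO13-/- library 1, 4 without untreated IPO13-/- library 2, treated IPO13+/+ library 1 or treated IPO13-/- library 1, and 6 with limma-voom or library totals.

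**Figure D3:**
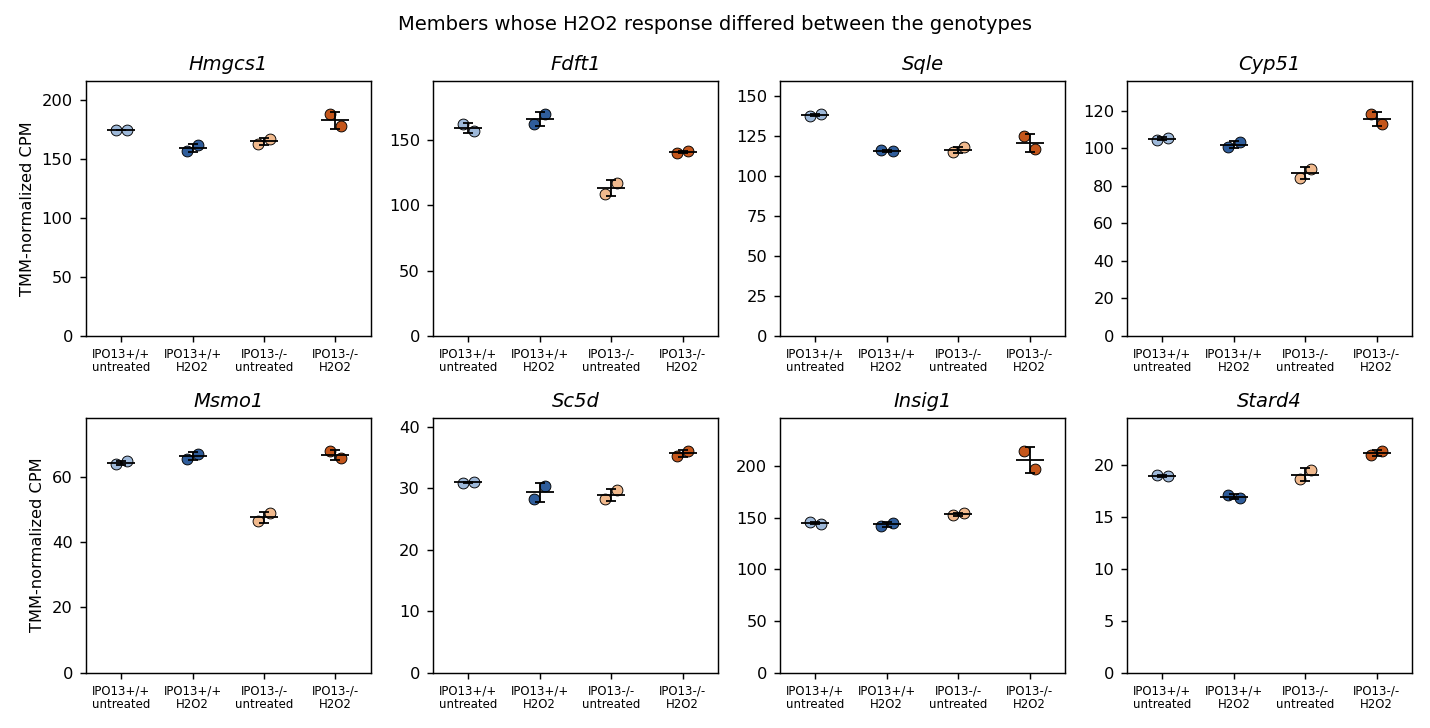
TMM-normalized CPM of the 8 members whose response to H2O2 differed between the genotypes (edgeR interaction, FDR below 0.05); points are the 2 libraries of each group, horizontal lines are means, bars are SDs, and all vertical axes start at 0. Cyp51, Sc5d, Insig1, Hmgcs1 and Stard4 are highest in treated IPO13-/- cells, and so is the mean of Msmo1, which overlaps treated IPO13+/+ cells. Msmo1, Fdft1 and Cyp51 are lowest in untreated IPO13-/- cells, and so is the mean of Sc5d, which overlaps treated IPO13+/+ cells. Sqle is highest in untreated IPO13+/+ cells.

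The level of the members before treatment was then compared between the genotypes. In untreated cells 9 of 30 members were higher in IPO13-/- libraries and 8 were lower, or 30% and 26.7%, beside 18.7% and 19.4% of all tested genes, and 24% and 30% of those at or above the lowest member's level. The median difference of the members was 0.00, against -0.03 over the genes at or above the lowest member's level. The groups did not overlap for 12 members that were higher and 14 that were lower in IPO13-/- cells, beside 30.7% and 31.5% of all tested genes, of which 2.86% and 1.84% differed by at least 2-fold. The split changed to 13 higher and 6 lower with library totals, and the count of 9 was 5 without untreated IPO13-/- library 2. Dhcr7, the reductase of the last step to cholesterol, differed most. It had 43.4 and 44.2 CPM in IPO13+/+ and 65.1 and 66.1 in IPO13-/- libraries, and was 49.6% higher in the latter (log2 fold change 0.58, SE 0.04, FDR 3.6e-11). Ebp was 24.1% higher (FDR 2.7e-05), and Lss, the lanosterol synthase, 12.1% higher (FDR 0.0044). Hsd17b7 was 17.5% higher (FDR 0.015), with 10.85 and 10.01 CPM in IPO13+/+ and 12.6 and 11.9 in IPO13-/- libraries. In the same arm 4 genes were lower in IPO13-/- cells. Fdft1 had a log2 fold change of -0.50 (SE 0.04, FDR 5.5e-10), Msmo1 of -0.43 (SE 0.05, FDR 1.4e-08), Cyp51 of -0.28 (SE 0.04, FDR 7.2e-06) and Sqle of -0.24 (SE 0.04, FDR 3.4e-05). The interaction and this comparison share the untreated libraries, so that a low untreated level in IPO13-/- cells enters both. Of the other 4 genes with an interaction, Sc5d, Hmgcs1, Insig1 and Stard4 were not called between the untreated genotypes, with log2 fold changes of -0.10, -0.08, 0.08 and 0.01.

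In the mevalonate arm, Mvk, the mevalonate kinase, had 15.0 and 16.2 CPM in untreated IPO13+/+ and 18.2 and 20.8 in untreated IPO13-/- libraries (log2 fold change 0.31, SE 0.07, FDR 0.00039). Mvd was 11.2% higher (FDR 0.015) and Idi1 was lower (log2 fold change -0.18, FDR 0.0050). Of the 8 genes of the fatty acid branch, 3 were lower and 2 were higher in untreated IPO13-/- cells. Elovl6, the elongase that makes stearate from palmitate, was lower in IPO13-/- cells, with 195 and 178 CPM in IPO13+/+ and 132 and 126 in IPO13-/- libraries (log2 fold change -0.53, SE 0.05, FDR 3.7e-10). Acly was lower as well, with 634 and 642 CPM against 530 and 537 (log2 fold change -0.26, SE 0.04, FDR 1.5e-06), and so was Fasn (log2 fold change -0.18, SE 0.04, FDR 0.0020). Both desaturases of polyunsaturated fatty acids were higher. Fads1 had 58.0 and 57.6 CPM in IPO13+/+ and 75.0 and 75.5 in IPO13-/- libraries (log2 fold change 0.38, SE 0.04, FDR 5.1e-08), and Fads2 had 32.2 in both IPO13+/+ and 43.8 and 43.1 in IPO13-/- libraries (log2 fold change 0.43, SE 0.05, FDR 4.9e-08). Acaca, Scd1 and Scd2 were not called, with log2 fold changes of 0.03, -0.08 and -0.09 (FDR 0.58, 0.12 and 0.096). Among the regulators Srebf1 alone was called, with 82.7 and 82.9 CPM in untreated IPO13-/- libraries (9.80% higher, FDR 0.013), while Srebf2 had 245 and 244 CPM (log2 fold change -0.04, FDR 0.48).

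After H2O2, more of the programme was higher than lower in IPO13-/- cells. In the treated libraries 17 of 30 members were higher in IPO13-/- cells and 4 were lower, or 56.7% and 13.3%, beside 19.1% and 17.5% of all tested genes. Of the genes at or above the lowest member's level, 27% were higher and 23.7% lower. The median difference of the members was 0.19 on the log2 scale. It was 0.00 over all tested genes and 0.003 over those at or above the lowest member's level. The 2 groups did not overlap for 20 members that were higher and 4 that were lower, beside 33.3% and 31.7% of all tested genes. Of all tested genes, 2.58% and 1.98% differed by at least 2-fold. The higher members comprised 5 of 7 of the mevalonate arm (Acat2, Hmgcs1, Mvk, Mvd and Fdps), 7 of 11 of the squalene and sterol arm (Lss, Cyp51, Nsdhl, Hsd17b7, Ebp, Sc5d and Dhcr7), 3 of 4 of the regulators and carriers (Srebf1, Insig1 and Stard4), and Fads1 and Fads2. The 4 lower ones were Fdft1, Acly, Fasn and Elovl6, which were also lower before treatment. The count of 17 lay between 16 and 18 under all alternatives other than the 2-fold threshold and with each library left out.

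Dhcr7 again differed most, with 42.1 and 41.3 CPM in treated IPO13+/+ and 69.5 and 70.8 in treated IPO13-/- libraries, 68.3% higher (log2 fold change 0.75, SE 0.04, FDR 2.4e-13). Insig1 was 43.2% higher (log2 fold change 0.52, SE 0.04, FDR 1.9e-10) and was not called before treatment. Fdps, the synthase of farnesyl diphosphate, had 106 and 104 CPM against 132 and 128 (log2 fold change 0.30, SE 0.04, FDR 2.2e-06), although 26.7% of its exon bases are shared with the model Gm43738 on the same strand. Ebp had 34.0 and 35.8 CPM against 43.3 and 48.4 (log2 fold change 0.39, SE 0.05, FDR 1.3e-06), and Mvk had 16.2 and 15.9 against 19.7 and 21.6 (log2 fold change 0.36, SE 0.07, FDR 7.1e-05). Cyp51 was the only member that was lower in untreated and higher in treated IPO13-/- cells (log2 fold change 0.18, SE 0.04, FDR 0.0015). Hsd17b7 was 25.0% higher (FDR 0.0015), although its treated IPO13+/+ libraries were spread, at 8.27 and 9.998 CPM, against 11.3 and 11.6. Elovl6 had 171 and 176 CPM against 125 and 120 (log2 fold change -0.50, SE 0.05, FDR 1.5e-09). Fads1 had 53.5 and 53.0 CPM against 73.2 and 71.8, and Fads2 33.7 and 32.0 against 46.3 and 43.9, which gave log2 fold changes of 0.45 and 0.46. The other members that were higher in treated IPO13-/- cells differed by between 10.8% (Srebf1) and 24.7% (Stard4). With and without H2O2, 9 members were thus higher in IPO13-/- cells (Dhcr7, Ebp, Fads1, Fads2, Hsd17b7, Lss, Mvd, Mvk and Srebf1). Another 4 were lower both times (Acly, Elovl6, Fasn and Fdft1). Among all of these, the interaction was called for Fdft1 only.

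**Figure D4:**
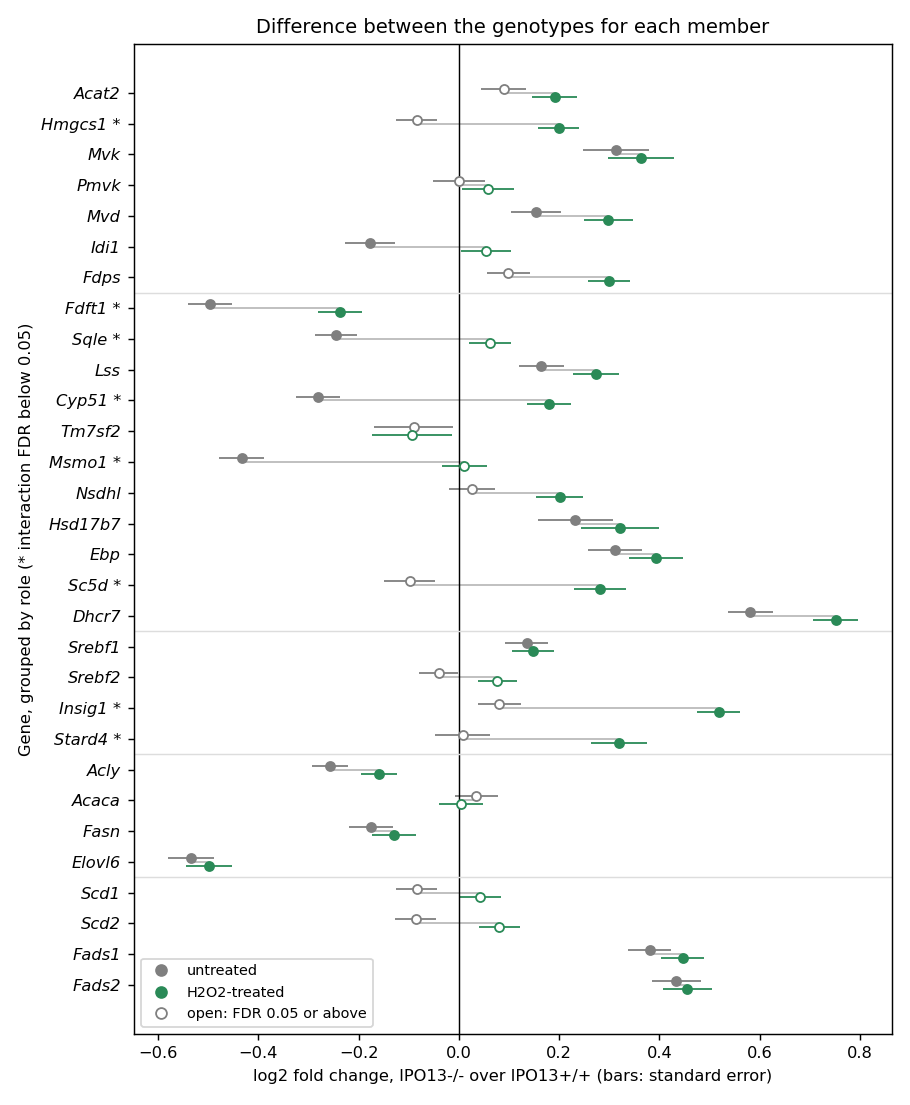
The log2 fold change of each member (rows, grouped by role) between IPO13-/- and IPO13+/+ libraries, untreated (gray) and after H2O2 (green); bars are standard errors from edgeR, filled points have an FDR below 0.05, and stars mark members with a different H2O2 response. In the sterol arm the untreated points range from -0.50 (Fdft1) to 0.58 (Dhcr7), and the green points of the upper 3 groups lie to the right of 0 except those of Fdft1 and Tm7sf2.

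Over the 4 groups, the highest mean level belonged to treated IPO13-/- cells for 16 of 30 members, to untreated IPO13+/+ cells for 8, to untreated IPO13-/- cells for 4 and to treated IPO13+/+ cells for 2. The lowest mean belonged to treated IPO13+/+ cells for 16 members. Members that were not called in any of the 5 comparisons were Pmvk, the phosphomevalonate kinase, which lay between 33.2 and 37.9 CPM in all libraries, and Tm7sf2, which lay between 5.90 and 6.80 CPM and shares 12.1% of its exon bases with Vps51 on the same strand.

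The start regions of the members with an interaction were read for the letters that transcription factors of this programme are known to bind. SREBPs bind a sterol regulatory element, of which TCACNCCAC is a well-known form, usually beside a CCAAT box, bound by NF-Y, or a GC box (GGGCGG), bound by SP1 and related factors. In RefSeq windows on GRCm38.p6 from 250 bases before to 50 bases after an annotated start, 23 of the 30 members had a window. Fdps, Fdft1, Sqle, Stard4, Scd1, Scd2 and Fads1 were not matched. Using the first listed window of each gene and both strands, TCACNCCAC was found in 1 of 23 members, Hmgcs1, and in 1.22% of 27025 genes. The shorter form TCACNNCA, which contains the longer one, was found in 8 of 23 members (34.8%) and in 13.8% of all genes, CCAAT in 18 of 23 (78.3%) against 37.9%, GGGCGG in 18 of 23 (78.3%) against 35.9%, and the E-box CACGTG in 3 of 23 (13%) against 7.24%. Of the 5 members with both an interaction and a window, 4 held TCACNNCA (Cyp51, Msmo1, Sc5d and Hmgcs1), and all 5 held CCAAT and GGGCGG. The E-box was held by 2 of these 5, Sc5d and Insig1, the latter having no TCACNNCA. Of the other 18 members with a window, 4 held TCACNNCA, 13 held CCAAT, 13 held GGGCGG and 1 (Hsd17b7) held the E-box. With all listed windows counted, TCACNNCA was held by 9 member genes, the added one being Dhcr7, which had no interaction and held it in its other 2 windows, and CCAAT in 1 of them. The shares of all genes cover every gene with a window, whatever its level, and no share at the members' level was computed. A match describes letters in a window and is not evidence of binding.

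The matches of the 4 interaction members are printed here with 11 bases on either side, on the strand that reads TCACNNCA, with the match in capitals, so that the variable bases and the surroundings can be compared. A match in Hsd17b7, which had no interaction (0.09), is shown because its 8 capital letters are those of Cyp51. The letters of the other matches were not particular to interaction members either. Those of Hmgcs1 (TCACCCCA) also occurred in Srebf2, and those of Sc5d (TCACATCA) in a later listed window of Dhcr7. Neither Srebf2 nor Dhcr7 had an interaction (0.12 and 0.17), and their matches are not printed.
Hmgcs1, chr13:119690203-119690232, + strand: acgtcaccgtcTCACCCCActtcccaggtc
Cyp51, chr5:4104767-4104796, - strand: ataggccgagaTCACCTCAgcagcgcgtgg
Msmo1, upstream match, chr8:64733737-64733766, - strand: tctcactattcTCACTCCAtccgcgcagcc
Msmo1, downstream match, chr8:64733652-64733681, - strand: gcacggaccaaTCACTGCAcggcgaaggca
Sc5d, chr9:42264334-42264363, - strand: gcgatccgccgTCACATCAgcttattgcgc
Hsd17b7, chr1:169969304-169969333, - strand: ctcggcctatcTCACCTCAcccggtctggg
In these the match of Hmgcs1 began 137 bases before the annotated start, that of Cyp51 88, those of Msmo1 177 and 92, that of Sc5d 52 and that of Hsd17b7 117. The downstream match of Msmo1 overlaps a CCAAT box by a single base, the final T of the box.

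The wider pathway was followed in 5 further lists of genes, whose counts are read beside the shares of all tested genes, namely 11.5% that rose and 13.8% that fell after H2O2 in IPO13+/+ cells, 14.9% and 14.4% in IPO13-/- cells, 18.7% higher and 19.4% lower in untreated IPO13-/- cells, 19.1% and 17.5% in treated ones, and 2.01% and 0.705% with a greater or smaller response in IPO13-/- cells. Of 10 genes that handle the SREBP proteins, 2 rose and 1 fell in IPO13+/+ cells after H2O2 and 3 rose and 2 fell in IPO13-/- cells, and none had an interaction. Scap, the escort protein of the SREBPs, had 57.5 and 55.5 CPM untreated and 78.7 and 76.0 treated in IPO13+/+ cells, and 63.9 and 61.9 and then 79.8 and 81.8 in IPO13-/- cells, with log2 fold changes of 0.45 and 0.36 (FDR 7.5e-09 and 3.2e-07). Fbxw7, a ubiquitin ligase subunit that marks nuclear SREBPs for degradation, rose by log2 fold changes of 0.50 and 0.43 (FDR 1.7e-09 and 2.1e-08). Both genes thus rose in either line, whereas 0 of the 30 members were called as a rise in IPO13+/+ cells. Between the genotypes 2 were higher and 2 lower before treatment, and 1 was higher and 0 lower after it.

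Of 12 genes of sterol uptake, transport and efflux, 2 rose and 3 fell in IPO13+/+ cells, and 3 rose and 2 fell in IPO13-/- cells. Abcg1, a sterol exporter, rose in IPO13+/+ cells (log2 fold change 0.45, FDR 7.6e-06), and Mylip, a ligase that limits receptor uptake, fell in IPO13-/- cells (log2 fold change -0.46, FDR 0.00038). Npc2, which carries cholesterol out of lysosomes, was the only gene of this list with an interaction (0.32, SE 0.06, FDR 0.0031). It had 131 and 126 CPM untreated and 128 and 131 treated in IPO13+/+ cells, and 111 and 117 and then 139 and 148 in IPO13-/- cells, the same shape as Cyp51. Before treatment 1 of the list was higher and 3 were lower in IPO13-/- cells, and after it 2 were higher and 0 lower. Lipa, the lysosomal acid lipase, was higher both before and after (log2 fold changes 0.46 and 0.64, FDR 0.00018 and 2.2e-06), and Abca1 was lower before (log2 fold change -0.29, FDR 0.00052).

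Of 20 further genes of fatty acid and lipid synthesis, 8 were higher and 5 lower in untreated IPO13-/- cells (18.7% and 19.4% of all tested genes), and 10 higher and 4 lower after treatment (19.1% and 17.5%), with 0 interactions. Acss2, which makes acetyl-CoA from acetate, had 7.15 and 7.28 CPM in untreated IPO13+/+ and 14.0 in both untreated IPO13-/- libraries, and 7.58 and 6.48 against 14.4 and 15.1 after treatment (log2 fold change 1.07 after treatment, SE 0.07, FDR 3.1e-12). Acsl5, an acyl-CoA synthetase, went the other way, with log2 fold changes of -1.10 before and -1.05 after treatment (FDR 2.1e-11 and 9.4e-11). Fads3, a relative of Fads1 and Fads2, was higher in IPO13-/- cells at low levels of 0.434 to 1.27 CPM (log2 fold changes 0.96 and 1.31, FDR 6.5e-05 and 5.8e-06). H2O2 raised 1 and lowered 4 of the list in IPO13+/+ cells, and raised 1 and lowered 3 in IPO13-/- cells. The gene that rose was Lpin1, a phosphatidate phosphatase, in both (log2 fold changes 0.97 and 1.23, FDR 7.3e-14 and 1.1e-15).

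The 15 genes of fatty acid oxidation, the opposing pathway, included 2 with an interaction, both again with a greater fold change in IPO13-/- cells. Cpt1a, the carnitine transferase that admits fatty acids to mitochondria, had 48.6 and 43.7 CPM and then 42.3 and 42.7 in IPO13+/+, and 40.5 and 43.0 and then 49.5 and 49.0 in IPO13-/- cells (0.36, SE 0.07, FDR 0.0048). After H2O2, 2 of the list rose and 1 fell in IPO13+/+ cells (11.5% and 13.8% of all tested genes), and 5 rose and 0 fell in IPO13-/- cells (14.9% and 14.4%). In untreated IPO13-/- cells 2 were higher and 6 lower, and in treated ones 5 were higher and 3 lower. Acaa2, the last enzyme of the mitochondrial cycle, was higher both times (log2 fold changes 0.65 and 0.73, FDR 5.8e-09 and 7.1e-10). Of 10 genes of the isoprenoid branches, which use the products of the mevalonate arm, 1 rose and 3 fell in IPO13+/+ cells and 0 rose and 2 fell in IPO13-/- cells, with 0 interactions. Between the genotypes 1 was higher and 5 were lower before treatment, beside 18.7% and 19.4% of all tested genes (24% and 30% at the members' level), and 1 higher and 6 lower after it, beside 19.1% and 17.5%. The higher one was Pdss1, which builds the side chain of coenzyme Q (log2 fold changes 0.43 and 0.46, FDR 2.0e-07 and 8.1e-08), and the lower ones included Rabggtb, a subunit of the Rab geranylgeranyl transferase (log2 fold changes -0.49 and -0.35, FDR 6.9e-10 and 2.4e-07).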

How the data were processed

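Reads of 8 mESC libraries had been mapped by the authors to mm10 and counted per gene symbol, and per the labels the processing notes name STAR 2.3.1, HTSeq, bcl2fastq and limma. The authors deposited raw counts, which were used for all tests, and CPM, which are each count over the library total and were only checked against the counts. Labels and Methods differ in sequencer model, lanes and read length. Groups and replicates were taken from the labels. Depth lay between 60397877 and 73789079 counts per library, and floors cover counting error only.

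Genes without any count in the 8 libraries were dropped, and the remaining 19424 were fitted in R 4.3.3 with edgeR 4.0.16 (quasi-likelihood test, TMM factors, 1 coefficient per group) and p-values were adjusted by Benjamini-Hochberg over these genes. Calls were made at FDR 0.05. The standard error is the absolute log2 fold change over the square root of F. An exact permutation test of 2 against 2 libraries cannot go below p = 0.333, so none was used. The members and lists were chosen with earlier results of these data known. Values by library are given for Srebf1, Srebf2, Insig1 and, per comparison, up to 8 called members with the largest change, and further members were added after their values were seen. A gene of the wider lists is named where it was called with at least a 2-fold change or is among the 2 largest called changes of its list in a comparison, and some genes of these lists are not reported here. Alternatives were relative log expression factors, library totals, filterByExpr, a minimum of 10 summed counts, limma-voom 3.58.1, DESeq2 1.42.0, only the libraries compared, a replicate block and each library left out. Gene models are from GENCODE M21 and start windows from RefSeq on GRCm38.p6.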

Additional observations from a re-analysis of the deposited data

Results flagged for a closer look

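The response to H2O2 differed between the genotypes for 8 members by edgeR's interaction test, each with a greater log2 fold change in IPO13-/- cells. The differences on the log2 scale were 0.46 for Cyp51, 0.44 for Msmo1, 0.44 for Insig1, 0.38 for Sc5d, 0.31 for Sqle, 0.31 for Stard4, 0.28 for Hmgcs1 and 0.26 for Fdft1. With single libraries left out, the difference lay between 0.40 and 0.49 for Cyp51, between 0.39 and 0.47 for Msmo1 and between 0.36 and 0.49 for Insig1, with a highest FDR of 0.037. For Stard4 and Fdft1 the highest FDR with a library left out was 0.31 and 0.38, for Hmgcs1 0.19, for Sqle 0.16 and for Sc5d 0.15.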

How the results depend on the processing

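No result changed direction while called. With 2 libraries per group, leaving 1 out assumes that the lone library varies like the others, although the spread between replicates was unequal over the groups. Falls in IPO13+/+ cells numbered 4 with library totals, 4 with only the libraries compared, 5 with filterByExpr and 7 with DESeq2, against 12, and 3 to 12 with single libraries left out. In IPO13-/- cells the 8 rises became 5 to 9 and the 2 falls 0 to 4 with libraries left out, and the falls were 4 with library totals, 4 with only the libraries compared, and 1 with filterByExpr, limma-voom or DESeq2. In untreated cells the 9 higher members became 5 to 9 and the 8 lower ones 6 to 10 with libraries left out, and 13 were higher and 6 lower with library totals. In treated cells the ranges were 16 to 18 and 3 to 4. Interactions numbered 3 to 11 with libraries left out. At 2-fold every count was 0. Over all genes the interaction split changed from 390 greater and 137 smaller to 209 and 469 with library totals. The causes were not tested. The replicate number as a block gave 12 interactions, 16 falls in IPO13+/+ cells and 4 falls in IPO13-/- cells, and 18 higher members after treatment. The deviations of equally numbered libraries correlated between -0.09 and 0.64 over 8620 genes (a description), and no source says that the numbers pair cultures.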
